A study of Mus musculus with 48 samples.

Results

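The nuclear genes for subunits of mitochondrial complex I were followed across day lengths in the pars tuberalis of mice, a layer of cells on the pituitary stalk that responds to melatonin. They were taken as all genes of the array annotation whose symbol starts with Nduf, without the Ndufaf genes, which code for assembly factors. Only probe sets with 1 symbol were used, and for each gene the one whose mean over the arrays was highest. This gave 36 of the 18194 genes measured. Complex I, the NADH dehydrogenase of the inner mitochondrial membrane, passes electrons from NADH to ubiquinone and pumps protons. A small set of core subunits carries the flavin and the iron-sulfur clusters in the arm that reaches into the matrix, further core subunits come from mitochondrial DNA, and many accessory subunits surround them. In secretory tissue such as the pituitary the complex feeds the respiratory chain that supplies ATP.

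All 48 arrays held RNA of male CBA/N mice, with the punched tissue of 25 mice pooled for an array, at 6 time points and 2 arrays per time point in each of 4 conditions. Long-day mice had 16 h of light for 2 weeks after the short-day start, and short-day mice stayed at 8 h of light. The label gives 8 weeks of age to both. Advance and delay were first long days that followed 3 weeks of short days, at a labelled age of 6 weeks. Light began early at ZT16 of the short-day cycle in advance and lasted until ZT16 in delay. ZT counts hours from lights-on, in advance and delay from that of the earlier short-day cycle.

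Of the 36 genes, 16 had 1 probe set and 20 had more, with 42 further probe sets. Another 10 probe sets with several symbols that include an Nduf gene were left out by the rule, so Ndufs6 and Ndufa11 have no value here, and Ndufb4 is read only from a dim probe set. The median member had a mean log2 level of 11.62, against 8.11 for the median of all genes, and 33 members lay above that median of all genes. The dimmest were Ndufb4 at 5.45, Ndufb1 at 6.22 and Ndufa4l2 at 7.05. Ndufa4, although it carries the name, is now counted as a subunit of complex IV, and Ndufa4l2 is its relative induced by low oxygen.

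Facts of the arrays that touch the results came first. Tshb and Cga, the subunits of thyrotropin, marked the tissue: Cga lay between 13.21 and 14.43 on every array, and Tshb between 13.76 and 14.43 under long days, 11.44 and 13.25 in advance, 11.37 and 12.65 in delay and 9.72 and 11.26 under short days. By 14 clock genes, all 12 arrays of advance, of delay and of short days were nearest to the other array of their own ZT. Under long days 8 of 12 were: the ZT16 array of each replicate number was nearest to the ZT20 array of the other number, and the ZT20 array to the ZT16 array. Whether any labels are exchanged is not settled by this check. The mismatch touches the daily course and single times under long days but not the mean of the day. Growth hormone or prolactin, products of the neighbouring pars distalis, lay above a log2 level of 10 on 6 arrays. The counts of members without these arrays are given with each comparison of day means. Prolactin lay between 7.25 and 10.25 on the delay arrays. The array mean of 6 pars distalis markers had a median of 8.58 in delay, 8.25 in advance, 8.16 under long days and 8.08 under short days. The counts without the 6 arrays are therefore not shown to be free of pars distalis signal. RNA of pooled tissue was measured, so fewer cells of a type and less RNA per cell cannot be told apart. The design text says that the procedure was repeated for the 2 replicates and nothing more, so p-values measure the spread between these arrays.

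Most of the genes moved together across the 48 arrays. On the log2 scale, without scaling of each gene, their first principal component held 71.6% of their variance. The weight had the same sign for 35 of 36, but its size differed. It was 0.33 for Ndufs7, 0.02 for Ndufa1 and Ndufa4l2, 0.01 for Ndufa9 and -0.03 for Ndufb4. No such component was taken for other genes. The condition accounted for a median of 53.96% of the variance of a member, against 31.01% for all genes. The share was 85.464% for Ndufa10, an accessory subunit related to nucleoside kinases, 81.359% for Ndufa8, an accessory subunit of the intermembrane space side, and 76.843% for Ndufs7, the core subunit with the last iron-sulfur cluster before ubiquinone. It was 3.69% for the dim Ndufb4 and 8.136% for Ndufs5.

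The mean level was highest under short days for 27 of the 36 genes, long days for 6, advance for 2 and delay for 1. Over all genes, 33.01% had their highest mean under short days. The lowest mean lay in advance for 23 members, in delay for 11, under long days for 2 and under short days for none, against 22.18%, 15.89%, 34.74% and 27.2% of all genes. The median deviation of the members from their own 48-array means ran from -0.16 to 0.11 on long-day arrays, from -0.20 to -0.01 in advance, from -0.21 to 0.04 in delay and from -0.03 to 0.46 under short days. Short-day arrays thus lay high as a set, and overlapped the other conditions at their low end. The 2 arrays of short-day ZT4 differed most, at 0.46 and 0.14, and those of ZT8 lay at 0.30 and 0.02.

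**Figure D1:**
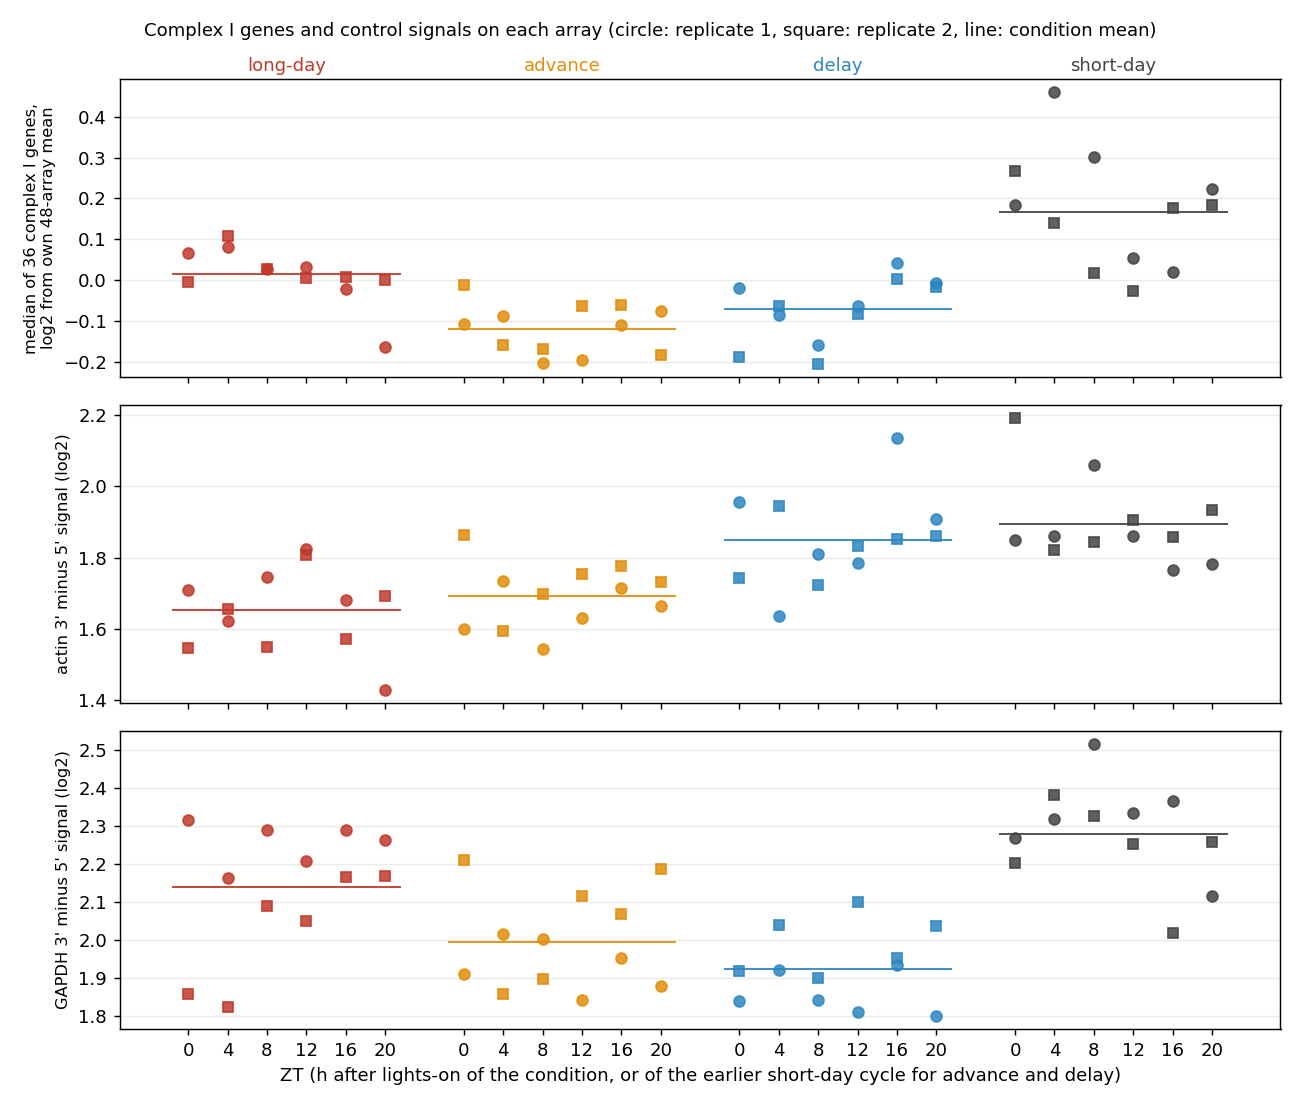
Median of the 36 complex I genes on each array as a log2 deviation from each gene's own 48-array mean (top), and the actin (middle) and GAPDH (bottom) 3' minus 5' control signals (log2), by condition and ZT. Points are arrays (circle replicate 1, square replicate 2) and lines are condition means; the short-day arrays reach 0.46 in the top panel, while those of advance lie between -0.20 and -0.01.

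Upstream sequence is shown for the genes with the highest condition shares, because their levels turned most on condition. The windows are the 250 bases before the gene start on the gene's strand, from RefSeq on build GRCm38.p6: chr1:92473759-92474008 on the minus strand for Ndufa10, chr10:80249199-80249448 on the plus strand for Ndufs7 and chr2:36049339-36049588 on the minus strand for Ndufa8. Capitals mark GGGCGG, the letters bound by SP1, GCATGCG, the core of the NRF1 site, and CCGGAAG, those of GABPA, each on either strand.
Ndufa10: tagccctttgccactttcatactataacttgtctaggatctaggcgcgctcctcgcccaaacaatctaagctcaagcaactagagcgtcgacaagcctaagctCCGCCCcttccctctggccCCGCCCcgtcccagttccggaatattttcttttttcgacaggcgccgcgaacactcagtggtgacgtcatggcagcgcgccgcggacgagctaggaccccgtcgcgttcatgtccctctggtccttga
Ndufs7: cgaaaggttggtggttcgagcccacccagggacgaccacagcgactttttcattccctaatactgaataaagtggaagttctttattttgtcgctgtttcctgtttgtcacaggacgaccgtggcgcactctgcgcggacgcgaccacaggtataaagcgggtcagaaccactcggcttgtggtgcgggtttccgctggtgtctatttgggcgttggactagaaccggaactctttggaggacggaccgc
Ndufa8: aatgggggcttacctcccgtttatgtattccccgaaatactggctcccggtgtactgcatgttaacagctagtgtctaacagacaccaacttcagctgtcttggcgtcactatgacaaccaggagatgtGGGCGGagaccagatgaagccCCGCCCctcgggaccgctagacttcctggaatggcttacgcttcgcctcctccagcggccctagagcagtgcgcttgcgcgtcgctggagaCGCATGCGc
The Ndufa10 window held the SP1 letters at 2 places and the Ndufs7 window none of the 3 motifs. The Ndufa8 window held the SP1 letters at 2 places and, at its end, the NRF1 letters on both strands in overlap. A window was found for 32 of the 36 genes. The NRF1 letters were in 2 of them (6.25%), against 3.785% of 17491 windows of protein-coding genes, the GABPA letters in 3 (9.375%, against 9.125%) and the SP1 letters in 14 (43.75%, against 42.67%).

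The question of the first comparison was how complex I genes differ after 2 weeks of long days. In the mean of the day, 23 of the 36 were lower under long days, where 29.1% of all genes were, and 3 were higher, where 17.6% of all genes were (limma, adjusted p below 0.05). In either direction 26 passed, against 46.7% of all genes. Without the 6 arrays high in growth hormone or prolactin 18 were lower and 3 higher, where 39.8% of all genes passed in either direction. The median change of the members was -0.13 on the log2 scale, against -0.03 for all genes, with a range from -0.45 to 0.15. Of the 36 changes 29 were below 0, where 59.2% of all genes were. No member had all 12 long-day arrays below or above all 12 short-day arrays, a separation found for 3.24% of all genes downward and 2.07% upward.

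Among the core subunits, Ndufs7 had log2 levels of 11.43, 11.65 and 11.83 under long days (lowest, median and highest of 12 arrays), against 11.66, 12.10 and 12.47 under short days. The ranges overlapped between 11.66 and 11.83. It fell by 0.43 ± 0.05 on the log2 scale (SE, adjusted p = 3.81e-08), and its second probe set by 0.34. Ndufs8, which carries further iron-sulfur clusters next to it, had 11.58, 11.82 and 12.00 under long days, against 11.90, 12.13 and 12.47 under short days, and fell by 0.33 ± 0.05 (adjusted p = 4.00e-06). Of its 5 other probe sets, 4 fell by 0.26 to 0.39, and the dimmest did not pass (-0.09). Ndufv2, an iron-sulfur subunit of the NADH end, lay at 12.15, 12.38 and 12.52 under long days and at 12.41, 12.59 and 12.86 under short days, and fell by 0.23 ± 0.04. Ndufs3, a core subunit of the ubiquinone end, fell by 0.14 ± 0.05 (adjusted p = 0.0175), with ranges of 11.26 to 11.62 under long days and 11.34 to 12.03 under short days. Its call was lost without any of 5 single arrays (adjusted p between 0.0501 and 0.0681), which were short-day ZT4, ZT8 and ZT20 of replicate 1 and long-day ZT0 and ZT16 of replicate 2.

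The remaining measured core subunits did not pass. Ndufs1, the large iron-sulfur subunit, had 11.13, 11.28 and 11.49 under long days and 11.17, 11.25 and 11.43 under short days, a difference of 0.03 ± 0.03 (adjusted p = 0.514). Ndufv1, which binds NADH and the flavin, had 12.32, 12.63 and 12.73 under long days and 12.34, 12.54 and 12.82 under short days, a difference of 0.06 ± 0.04 (adjusted p = 0.234). A second Ndufv1 probe set of nearly the same mean level (12.28) rose by 0.39 (adjusted p = 3.78e-10), and another, at 12.42, did not pass (0.08). The probe sets of Ndufv1 therefore disagree, and with their mean the gene rose by 0.17. ND5, a core subunit read from mitochondrial DNA that is no Nduf gene and was noticed among the symbols, rose by 0.17 ± 0.04 under long days (adjusted p = 0.000271). It did not pass in advance minus short day (0.02), delay minus short day (-0.06) or advance minus delay (0.07).

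Accessory subunits fell over a like range. Ndufa10 had 10.93, 11.05 and 11.30 under long days, against 11.23, 11.57 and 11.83 under short days, so that the ranges met only at their edges. It fell by 0.45 ± 0.04 (adjusted p = 3.22e-11), and its dim second probe set by 0.19. Ndufb10, a subunit of the membrane arm with the cysteine pairs of intermembrane space proteins, had 9.92, 10.15 and 10.42 under long days and 10.13, 10.68 and 11.02 under short days, and fell by 0.42 ± 0.06. Ndufb9, an LYR motif protein that binds the acyl carrier protein Ndufab1, fell by 0.33 ± 0.05, but its other probe sets, at levels of 10.37 and 6.36, did not pass (-0.03 and 0.01). Ndufb2 fell by 0.31 ± 0.04 and Ndufb8 by 0.30 ± 0.04, both in the membrane arm.

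Of the 3 genes that rose, none by more than 0.15, Ndufa4 had 10.98, 11.15 and 11.28 under long days and 10.88, 10.99 and 11.29 under short days, a rise of 0.15 ± 0.03 (adjusted p = 0.000402). Ndufa9, an accessory subunit at the ubiquinone end, rose by 0.12 ± 0.03. Ndufs4, an accessory subunit whose loss in patients causes Leigh syndrome, rose by 0.10 ± 0.03 (adjusted p = 0.00921), and 2 other probe sets of levels above 8 did not (-0.05 and -0.04). Over all members, 35 of 42 other probe sets had the sign of the probe set used. Of the 20 with a level of 8 or more that belong to members that passed, 14 passed in the same direction and none in the opposite direction.

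**Figure D2:**
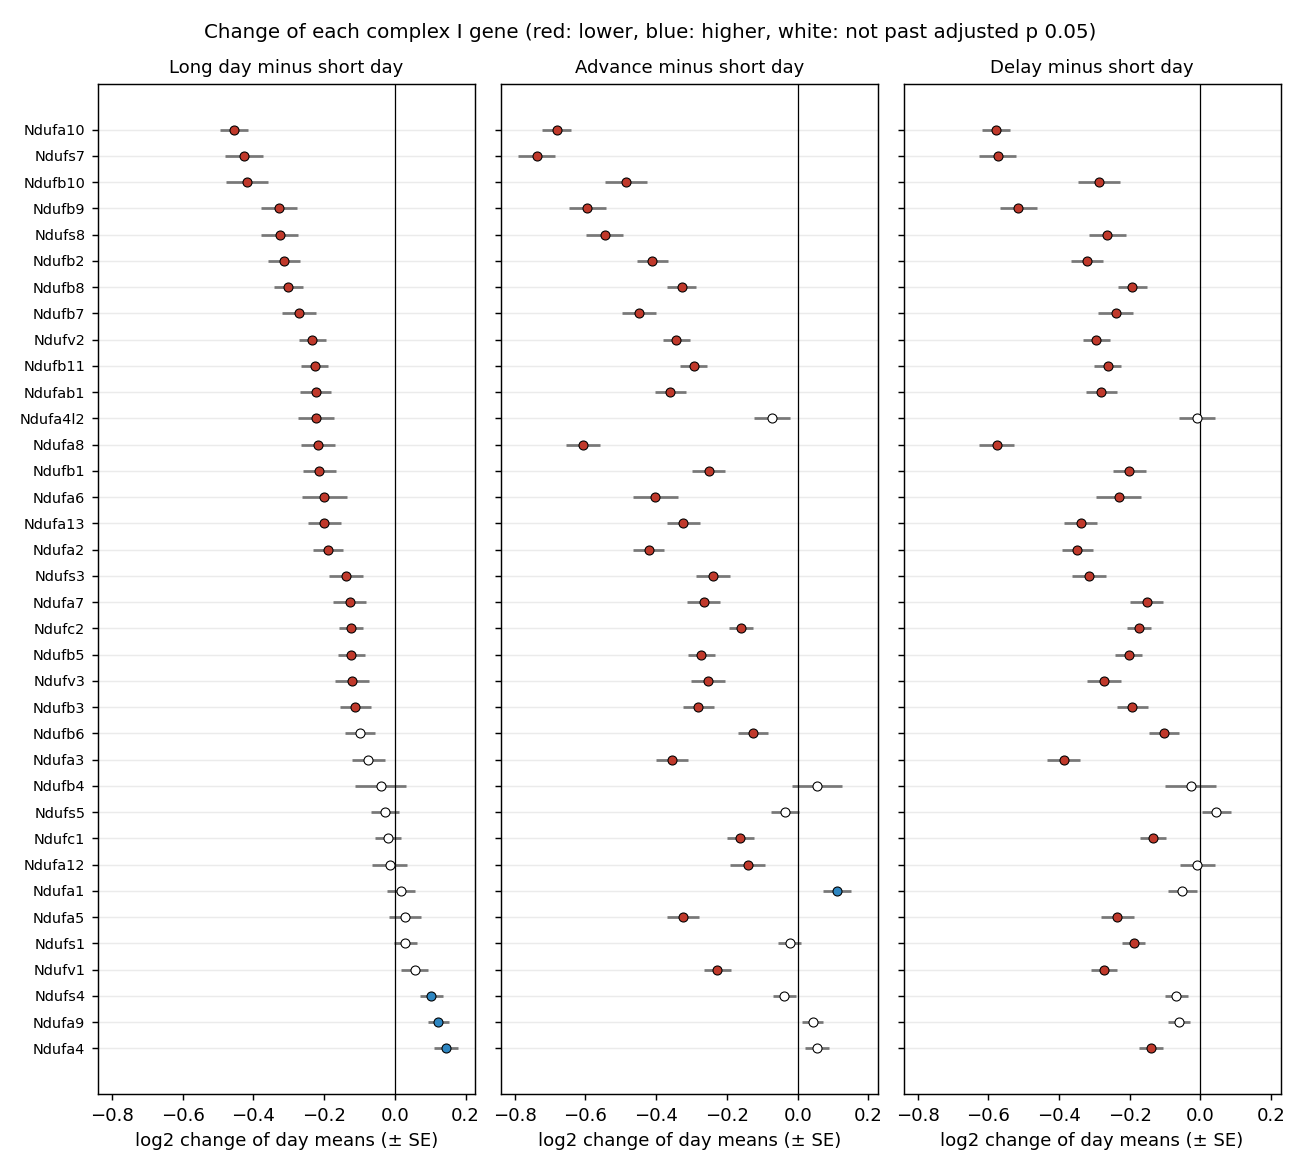
Log2 change of the day mean of each of the 36 complex I genes (points, bars are SE from limma) for long day minus short day, advance minus short day and delay minus short day; red is lower and blue higher past an adjusted p of 0.05, white did not pass. From top to bottom the order follows the first panel, from Ndufa10 at -0.45 to Ndufa4 at 0.15, and the 3 panels share the short-day arrays.

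At single times of day the long-day values lay lower at some times only. Of the 36 genes, 11 were lower at ZT0 (14.2% of all genes), 9 at ZT4 (14.3%), 5 at ZT8 (9.08%), none at ZT12 (2.76%), 3 at ZT16 (7.84%) and 17 at ZT20 (14.3%), each on 2 arrays against 2. At ZT12 limma gave 2 members an unadjusted p below 0.05 in either direction (18.8% of all genes). Higher values passed for 1 gene at ZT4 (7.84% of all genes), 1 at ZT16 (8.21%) and none at ZT0 (5.72%), ZT8 (7.12%), ZT12 (2.69%) or ZT20 (5.34%). By clock genes the long-day ZT16 and ZT20 arrays matched the other time, so the counts at ZT16 and ZT20 may each mix times. The long-day ZT20 arrays had median deviations of the members of -0.164 and 0.001. The median change was -0.28 at ZT20 and 0.02 at ZT12. The F test for a different daily course under long and short days passed for no member, against 4.3% of all genes, with 3 members at an unadjusted p below 0.05 (16.9% of all genes), so these times were not shown to differ.

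The control signals of RNA length stood beside this. Arrays of this kind carry probe sets for the 3' end, the middle and the 5' end of the actin and GAPDH transcripts, and 3' minus 5' is larger where the labelled RNA reached less far toward the 5' end. The actin difference was 1.65 ± 0.12 under long days and 1.90 ± 0.12 under short days (log2, SD, n = 12 each), 0.24 lower under long days (exact permutation within ZT, two-sided, p = 4.287e-05). The GAPDH difference was 2.14 ± 0.16 under long days and 2.28 ± 0.13 under short days, 0.14 lower under long days (exact permutation p = 0.0433). Read from the middle in place of the 5' end, the actin difference turned round, 0.05 higher under long days (exact permutation p = 0.0692), and the GAPDH difference stayed lower by 0.09 under long days (exact permutation p = 0.000472).

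With the actin 3' minus 5' signal of each array in the model, 9 of the 23 lower genes still passed, where 16.2% of all genes were lower, and the median change of the members was -0.06. The 9 were Ndufa10, Ndufs7, Ndufb10, Ndufb2, Ndufb8, Ndufb9, Ndufb11, Ndufb1 and Ndufa4l2. Ndufa10 then fell by 0.38 ± 0.05 and Ndufs7 by 0.26 ± 0.06, while Ndufs8 (-0.12 ± 0.06) and Ndufv2 (-0.11 ± 0.04) no longer passed. Ndufa4 rose by 0.20 ± 0.04, and Ndufa9 did not pass (0.09 ± 0.04). With the GAPDH signal 22 of the 23 remained lower (26.6% of all genes). With both signals 9 did (16.4%), and these held Ndufv2 in place of Ndufb9. With the actin signal from the middle 24 were lower and 3 higher (47.3% of all genes in either direction). How far RNA length takes part in the result was not tested beyond these fits.

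**Figure D3:**
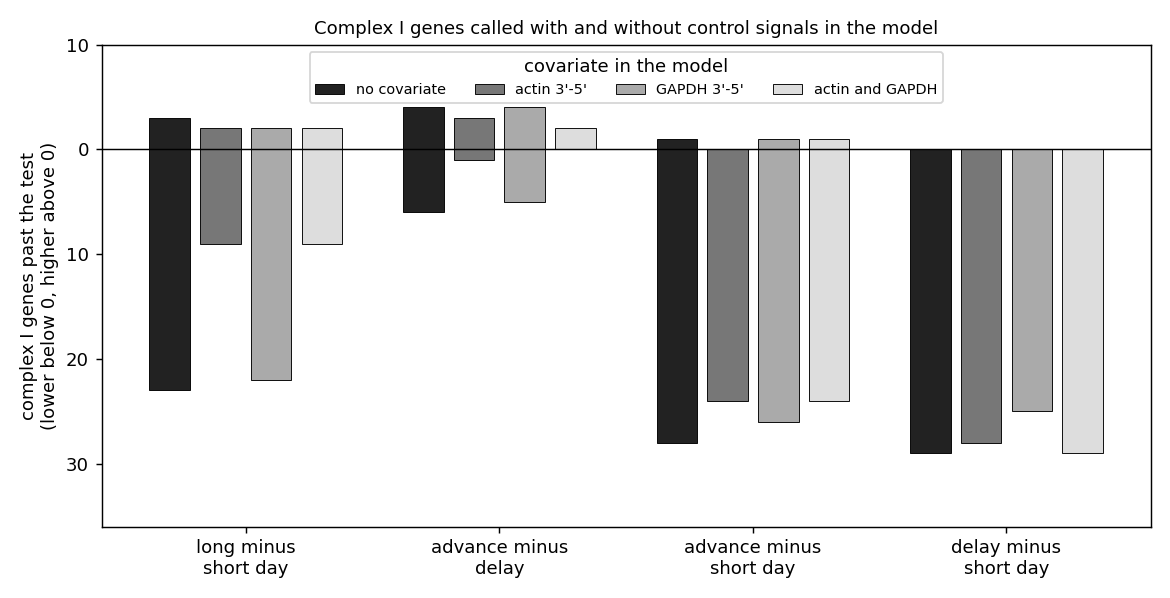
Number of the 36 complex I genes past an adjusted p of 0.05 in 4 comparisons, higher above 0 and lower below it, without and with the 3' minus 5' control signals in the model. The lower genes number 23, 9, 22 and 9 for long minus short day and 29, 28, 25 and 29 for delay minus short day, in the order of the legend.

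Markers of other cells also differed between these conditions, where 29.1% of all genes were lower and 17.6% higher under long days. Of 5 tanycyte and ependyma markers 4 were lower and 1 higher under long days, and their mean log2 level per array lay between 8.6479 and 8.8575 under long days and between 9.0024 and 9.3722 under short days. Of 3 astrocyte markers 2 were lower and 1 higher, with array means of 9.82 to 10.30 under long days and 10.29 to 10.96 under short days. Of 5 neuron markers 2 were lower and 2 higher, with array means of 10.76 to 11.03 under long days and 10.78 to 11.25 under short days. Of 3 markers each, 1 was lower for microglia and 1 higher for oligodendrocytes. Of 6 pars distalis markers 2 were lower and 1 higher, and of 4 pars tuberalis markers 3 were higher. Of 3 endothelium markers 1 was lower, of 2 muscle markers 1 was lower, and neither of 2 blood markers passed. The part of such cells in the values of complex I genes was not tested.

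Advance and delay, both at the same labelled age, differ in the side of the night that receives the light. Their day means do not compare these lights alone. The delay arrays of ZT0, ZT4 and ZT8 precede the extra light, and ZT16 of advance is the time its light began. Few members passed, in both directions: 6 of 36 were lower in advance (13.8% of all genes) and 4 were higher (10.3%), shares near those of all genes. The median was -0.06, against -0.02 for all genes. Without the arrays high in growth hormone or prolactin 8 were lower and 4 higher (23.6% of all genes in either direction, against 24.1% with them). No member separated all 12 arrays of advance from all 12 of delay, in either direction (0.258% and 0.297% of all genes). Ndufs8 had 11.46, 11.59 and 11.99 in advance and 11.70, 11.89 and 12.17 in delay, and fell by 0.28 ± 0.05 (adjusted p = 0.000174). Ndufb7, a further membrane-arm subunit with cysteine pairs, fell by 0.21 ± 0.05, Ndufb10 by 0.20 ± 0.06 and Ndufb8 by 0.14 ± 0.04. Ndufs7 fell by 0.16 ± 0.05 (adjusted p = 0.0208), while its second probe set did not pass (-0.06). The call was lost without advance ZT0 or ZT12 of replicate 1, advance ZT4 of replicate 2 or delay ZT0 of replicate 1 (adjusted p between 0.0506 and 0.0584). Ndufa6, another LYR motif protein, fell by 0.17 ± 0.06 (adjusted p = 0.0494), close to the threshold, and lost the call without any of 18 single arrays (adjusted p between 0.0505 and 0.12).

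Ndufa4 stood out among those that rose, with 10.99, 11.05 and 11.16 in advance and 10.70, 10.89 and 11.01 in delay, a rise of 0.19 ± 0.03 (adjusted p = 5.61e-05). Ndufs1 had 11.06, 11.25 and 11.33 in advance and 10.99, 11.07 and 11.19 in delay, and rose by 0.17 ± 0.03. Its ranges overlapped through a single low array of advance at ZT0. Ndufa1, a small membrane subunit needed for assembly, rose by 0.16 ± 0.04 and Ndufa9 by 0.10 ± 0.03.

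The actin 3' minus 5' difference was 1.69 ± 0.09 in advance and 1.85 ± 0.13 in delay (SD, n = 12 each), 0.16 lower in advance (exact permutation p = 0.00257). The GAPDH difference was 2.00 ± 0.13 in advance and 1.92 ± 0.10 in delay (exact permutation p = 0.182). With the actin signal in the model Ndufs8 alone was lower (4.86% of all genes), by 0.15 ± 0.05 (adjusted p = 0.0337), and the median of the members turned to 0.01. Ndufa4 rose by 0.23 ± 0.04 and Ndufs1 by 0.13 ± 0.04 in that fit, and 3 genes were higher in all (5.56%). With both signals none was lower (3.59%) and 2 were higher (4.23%). With the GAPDH signal alone 5 were lower (13.7%) and 4 higher (10.1%). Of the cell markers, 2 of 3 for microglia were lower and 1 higher in advance, 2 of 5 for tanycytes and ependyma lower and 1 higher, and 2 of 5 for neurons, 1 of 3 for astrocytes and 1 of 3 for oligodendrocytes lower. In advance 3 of 4 pars tuberalis markers were higher and 1 of 6 pars distalis markers was lower. The part of such cells in the values was not tested.

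**Figure D4:**
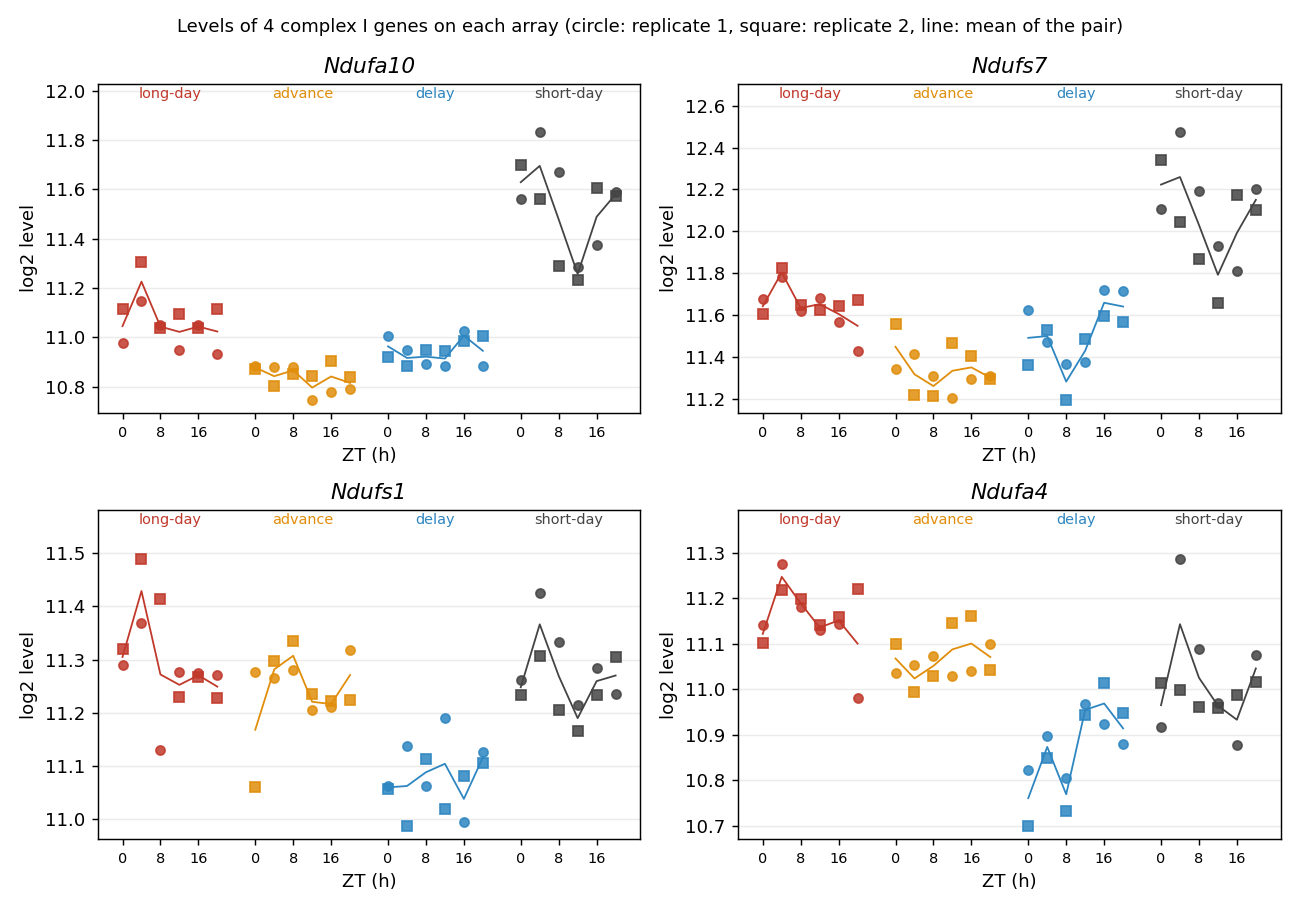
Log2 level of Ndufa10, Ndufs7, Ndufs1 and Ndufa4 on every array by condition and ZT (circle replicate 1, square replicate 2, line the mean of the pair). Ndufa10 lies between 10.75 and 11.30 on all arrays of long days, advance and delay, and between 11.23 and 11.83 under short days, while the short-day range of Ndufs1 (11.17 to 11.43) lies within the long-day range.

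First long days against chronic short days also set 6 weeks of age against 8 weeks. Age and light cannot be told apart in these day means. On its long day, delay had the light of short days up to ZT8. The median deviation of the members averaged -0.10 at ZT0, -0.07 at ZT4 and -0.18 at ZT8 in delay. Under short days it averaged 0.225, 0.30 and 0.16 at these times. At ZT12, ZT16 and ZT20 it averaged -0.07, 0.02 and -0.01 in delay, against 0.01, 0.10 and 0.20. The parts of age and light were not tested. Both comparisons and that of long days share the short-day arrays. In advance 28 of 36 genes were lower (29.3% of all genes) and 1 was higher (22.2%; 51.4% in either direction), with a median of -0.28, against -0.00 for all genes. In delay 29 were lower (26% of all genes) and none higher (23.8%, and 49.8% in either direction; at an unadjusted p below 0.05, 30 members and 55.3% of all genes differed), with a median of -0.23, against 0.01 for all genes. Without the arrays high in growth hormone or prolactin 28 were lower and none higher in advance (48.8% of all genes in either direction), and 27 lower and none higher in delay (46.6%). All 12 arrays of advance lay below all 12 short-day arrays for 7 members (5.52% of all genes). These were Ndufa10, Ndufa8, Ndufs7, Ndufb9, Ndufb2 and, outside the rule for naming, Ndufa3 and Ndufv2. All 12 arrays of delay did so for Ndufa10, Ndufa8, Ndufb9 and Ndufa3 (2.65%). No member lay above all short-day arrays in advance (2.24%) or in delay (1.27%).

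Ndufa10 had 10.75, 10.85 and 10.91 in advance and 10.88, 10.95 and 11.03 in delay, against 11.23, 11.57 and 11.83 under short days. It fell by 0.68 ± 0.04 in advance (adjusted p = 4.72e-15) and by 0.58 ± 0.04 in delay (adjusted p = 5.65e-13). Ndufs7 had 11.20, 11.31 and 11.56 in advance and 11.20, 11.51 and 11.72 in delay, against 11.66, 12.10 and 12.47 under short days, and fell by 0.74 ± 0.05 in advance and 0.57 ± 0.05 in delay. Ndufa8 had 10.50, 10.60 and 10.78 in advance and 10.42, 10.63 and 10.91 in delay, against 10.94, 11.20 and 11.48 under short days. It fell by 0.61 ± 0.05 in advance and 0.58 ± 0.05 in delay, both without overlap of the arrays. Ndufb9 fell by 0.59 ± 0.05 in advance and 0.51 ± 0.05 in delay.

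Among the other genes named by rule, Ndufs8 fell by 0.55 ± 0.05, Ndufb7 by 0.45 ± 0.05, Ndufa2, a thioredoxin-like subunit, by 0.42 ± 0.04 and Ndufb2 by 0.41 ± 0.04 in advance. In delay Ndufa3 fell by 0.39 ± 0.05, Ndufa2 by 0.35 ± 0.04, Ndufa13, also called GRIM-19, by 0.34 ± 0.05 and Ndufv2 by 0.29 ± 0.04. Ndufa1 was the member that rose in advance, by 0.11 ± 0.04 (adjusted p = 0.0192). Its call was lost without replicate 2 of short-day ZT0, ZT4, ZT8 or ZT20 (adjusted p between 0.0517 and 0.0666) and without the arrays high in growth hormone or prolactin (adjusted p = 0.0552).

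Core subunits that did not pass under long days are given here too, chosen after their values were seen. Ndufv1 had 12.25, 12.32 and 12.41 in advance and 12.17, 12.28 and 12.38 in delay, against 12.34, 12.54 and 12.82 under short days. It fell by 0.23 ± 0.04 in advance and 0.27 ± 0.04 in delay, but its second probe set rose by 0.22 in advance (adjusted p = 7.12e-06) and did not pass in delay (0.06). Ndufs1 had 11.06, 11.25 and 11.33 in advance and 10.99, 11.07 and 11.19 in delay, against 11.17, 11.25 and 11.43 under short days. It fell in delay, by 0.19 ± 0.03 (adjusted p = 1.24e-05), and did not pass in advance (-0.02 ± 0.03). Ndufa4 fell by 0.14 ± 0.03 in delay and did not pass in advance (0.05 ± 0.03). Other probe sets of a level of 8 or more that belong to members that passed numbered 26 in advance, of which 20 passed in the same direction and 1, that of Ndufv1, in the opposite one. In delay 17 of 24 passed in the same direction and none in the opposite one.

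In delay the actin 3' minus 5' signal was 1.85 ± 0.13 in delay and 1.90 ± 0.12 under short days (SD, n = 12 each, exact permutation p = 0.422). Read from the middle in place of the 5' end, the actin difference was 0.21 higher in delay (exact permutation p = 4.287e-05). The GAPDH signal was 0.36 lower in delay (exact permutation p = 4.287e-05). With the actin signal in the model 28 genes were lower in delay (25.6% of all genes), with the GAPDH signal 25 (18.4%) and with both 29 (19.9%), 28 of them lower without either signal. In advance the actin signal was 0.20 lower (exact permutation p = 0.0001715) and the GAPDH signal 0.28 lower (exact permutation p = 0.000514). The actin signal read from the middle went the other way, 0.14 higher in advance (exact permutation p = 0.0003001). There 24 genes were lower with the actin signal in the model (21.9% of all genes), 26 with the GAPDH signal (24.1%) and 24 with both (20.7%). Ndufa10 in delay fell by 0.56 ± 0.04 with the actin signal, against 0.58 ± 0.04 without it. Of the tanycyte and ependyma markers 4 were lower and 1 higher in advance and in delay. Of the astrocyte markers 2 were lower in each, and 1 was higher in advance. All 3 microglia markers were lower in advance and 2 in delay, with array means of 9.35 to 9.56 in advance and 9.38 to 9.61 in delay, against 9.42 to 9.92 under short days. Of 5 neuron markers 2 were lower in each. Of 3 oligodendrocyte markers 2 were lower in advance, and in delay 1 was lower and 1 higher. Of 6 pars distalis markers 1 was lower and 2 higher in advance, and 2 were higher in delay. All 4 pars tuberalis markers were higher in advance, and in delay 1 was lower and 2 higher. Of 3 endothelium markers 1 was lower and 1 higher in each. Of 2 muscle markers 1 was lower in each, and of 2 blood markers 1 was higher in delay. Their part in these values was not tested.

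Members passed the test of a daily course under short days and in no other condition. No member varied over the day under long days (1.63% of all genes), in advance (2.58%) or in delay (1.52%), by limma's F test, with 0, 1 and 2 members at an unadjusted p below 0.05 (9.37%, 12.1% and 11.5% of all genes). Under short days 15 members had an unadjusted p below 0.05 (25.6% of all genes), and the median deviation of the members averaged 0.30 at ZT4 and 0.01 at ZT12. There 5 passed (8.91%): Ndufb11, a membrane-arm subunit (adjusted p = 0.0182), Ndufa10 (adjusted p = 0.0277), Ndufv3, an accessory subunit of the NADH end (adjusted p = 0.0356), Ndufab1 (adjusted p = 0.0399) and, outside the rule for naming, Ndufa7 (adjusted p = 0.0429). Ndufb11 had a mean of 13.54 at ZT0, 13.50 at ZT4, 13.32 at ZT8, 13.14 at ZT12, 13.34 at ZT16 and 13.51 at ZT20, with 13.20 and 13.08 on the ZT12 arrays. Ndufa10 likewise was lowest at ZT12, at 11.28 and 11.23, and highest at ZT4, at 11.83 and 11.56.

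The short-day count rested on single arrays. Numbers of all genes are not given for these fits, so the changes are not shown to be particular to the members. It was 0 without ZT12 of replicate 2, 1 without ZT4 of replicate 1, 2 without ZT0 of replicate 2 or ZT12 of replicate 1 and 3 without either ZT20 array. It was 9 without ZT8 of replicate 2 and 17 without ZT4 of replicate 2. It was 0 without the arrays high in growth hormone or prolactin, which include 1 of the ZT12 arrays.

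The first hours of extra light were read as the change over 4 h minus the change under short days over the same hours. From ZT16 to ZT20, when light began in advance, no member passed (0.0385% of all genes lower, 0.181% higher, 0.22% in either direction). Of 36 changes 35 were below 0, where 64.2% of all genes were. The median was -0.16, against -0.06 for all genes. Only Ndufb4 had an unadjusted p below 0.05, as 6.2% of all genes did. It lay at 5.65 and 5.96 at ZT16 and 5.56 and 5.41 at ZT20 in advance, against 5.55 and 4.88 at ZT16 and 5.45 and 5.53 at ZT20 under short days, a difference of -0.59 ± 0.25 (adjusted p = 0.703). It passed without short-day ZT16 of replicate 1 (-0.93, adjusted p = 0.0389). The next was Ndufb11 at -0.26 ± 0.13 (adjusted p = 0.798).

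From ZT8 to ZT12, when delay stayed light and short days went dark, again no member passed (0.0385% of all genes), with 10 at an unadjusted p below 0.05 (7.58% of all genes). Of 36 changes 2 were below 0, where 39.3% of all genes were, and the median was 0.25, against 0.05 for all genes. Ndufa7 had 10.40 and 10.42 at ZT8 and 10.56 and 10.47 at ZT12 in delay, against 11.07 and 10.73 at ZT8 and 10.60 and 10.44 at ZT12 under short days, a difference of 0.48 ± 0.16 (adjusted p = 0.627). Ndufa2 differed by 0.40 ± 0.15 (adjusted p = 0.627). The median over members was 0.11 without short-day ZT8 of replicate 1 and 0.39 without replicate 2, so it turned on which of these arrays was kept.

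The other parts of the respiratory chain were set beside complex I, where 29.1% of all genes were lower and 17.6% higher in long minus short day. In long minus short day, 6 of 9 complex III genes were lower and 1 higher, with a median of -0.17, close to that of complex I. Uqcrc1, a core protein of complex III, fell by 0.52 ± 0.06 and Uqcr10 by 0.35 ± 0.05, while Uqcrh rose by 0.24 ± 0.04. Of 4 complex II genes 2 were lower and 1 higher: Sdhc, a membrane anchor, fell by 0.34 ± 0.04, Sdhb by 0.17 ± 0.04, and Sdha, the flavoprotein, rose by 0.15 ± 0.03. Of 15 complex IV genes 5 were lower and 2 higher, with Cox6a2, the form of heart and muscle, down by 0.60 ± 0.07. Of 17 complex V genes, which form the ATP synthase, 4 were lower, such as Atp5d (-0.41 ± 0.07) and Atp5c1 (-0.29 ± 0.04), and 2 higher, among them Atp5a1 (0.12 ± 0.03). The complex IV and complex V shares of lower genes lay near that of all genes. Neither of 2 cytochrome c genes passed. The assembly factors of complex I split, with 8 of 15 lower and 5 higher: Timmdc1 fell by 0.46 ± 0.05, and Ndufaf4 rose by 0.28 ± 0.04 and Tmem126b by 0.42 ± 0.07. Among 11 regulators of mitochondrial biogenesis 4 were lower and 2 higher. Polrmt, the mitochondrial RNA polymerase, fell by 0.32 ± 0.05, and Gabpa, a factor that binds promoters of respiratory genes, rose by 0.28 ± 0.04.

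In delay minus short day 15 of 17 complex V genes, 8 of 15 complex IV genes, 7 of 9 complex III genes and all 4 complex II genes were lower, and 2 complex IV genes were higher (26% of all genes lower, 23.8% higher). In advance minus short day 12 of 17, 8 of 15, 8 of 9 and 3 of 4 were lower in the same order, with 1 complex V and 3 complex IV genes higher (29.3% of all genes lower, 22.2% higher). In advance minus delay 3 complex V, 2 complex II and 1 complex III genes were higher and 1 complex III and 1 complex IV genes lower (10.3% of all genes higher, 13.8% lower).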

How the data were processed

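The authors deposited log2 values per probe set, normalized by RMA (R 2.8.0, per the submitters' processing notes) from Affymetrix arrays after one-cycle biotin labelling. RMA corrects background and equalises the distributions of arrays, so a shift shared by most genes is removed before deposit. Array medians lay between 6.98 and 7.03, and no normalization was repeated. Of 45101 probe sets, 34958 had 1 symbol, 932 several and 9211 none. For arrays their number, 2 per group, limits the precision.

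In limma 3.58.1 (R 4.3.3) a mean was fitted for each of 24 groups, leaving 24 residual degrees of freedom, with empirical Bayes and a trend. Tests were two-sided, with Benjamini-Hochberg adjustment over 18194 genes and a threshold of 0.05, and were checked on simulated data. The errors of changes are SE. Control signals were compared by exact permutation within ZT (46656 arrangements). The alternatives were a minimum level of 7, other summaries of probe sets, covariates, centring, replicate blocks, no variance trend, fewer groups or times, clock time, and arrays left out.

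Named genes are the core subunits, per comparison up to 8 lower and 4 higher members with the smallest p (2 where none passed, 4 in F tests), and up to 3 genes of every other list. A few outside this rule, such as second probe sets, ND5 and the genes in lists of calls, were named after their values were seen. Members and lists were chosen with earlier results of these data known. Cell markers and pathway lists came from general knowledge.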

Additional observations from a re-analysis of the deposited data

How the results depend on the processing

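Precision is limited by 2 arrays per group, and short-day arrays enter most comparisons. The alternatives with both control signals, with actin read from its middle, with blocks within conditions, and without arrays high in growth hormone or prolactin or long-day ZT16 and ZT20 of replicate 2 were chosen after seeing the data. The cause of the changes below was not tested. Numbers of all genes that passed are given for some fits, and not where single arrays were left out. For long minus short day, 11 members passed (9 lower) with the actin covariate and the same numbers with both control signals. Of all genes 5006 and 5057 passed in these fits, against 8503 without a covariate. Centred on array medians 16 were lower and 6 higher, against 23 and 3 without centring (8770 and 8503 of all genes in either direction). At single times 11, 10, 5, 0, 4 and 17 passed at ZT0, ZT4, ZT8, ZT12, ZT16 and ZT20, of which 11, 9, 5, 0, 3 and 17 were lower and 0, 1, 0, 0, 1 and 0 higher. For advance minus delay, 10 were lower with the mean of probe sets, 4 passed (1 lower) with actin, 2 (0 lower, 2 higher) with both signals and 5 (2 lower) with actin read from its middle. Of all genes 4408, 1896, 1423 and 2703 passed in these fits in the same order, against 4382 in the main fit. In advance minus short day 9353 of all genes passed, 7075 with actin, 8145 with actin read from its middle and 10010 when centred. For advance minus short day, 0 were higher with actin, with actin read from its middle, without arrays high in growth hormone or prolactin, or in the compared groups alone, and 3 when centred. For delay minus short day 1 was higher with the mean of probe sets (8675 of all genes passed in either direction, against 9069). In the short-day course 1621 of all genes passed, 1086 with the mean of probe sets, 1478 without a variance trend, 1279 when centred and 89 when fitted alone. With all probe sets as separate rows 1994 rows passed. The short-day course held 1 with the mean of probe sets, 2 with all probe sets or without a variance trend, and 0 when centred, without the arrays high in growth hormone or prolactin, or fitted alone. The minimum level, the GAPDH covariate and clock time moved no count of members by over 1.5 times.

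The replicate numbers were not taken as pairs: the median correlation of differences between replicates was 0.238 under long days, 0.0698 in advance, 0.273 in delay and 0.0328 under short days, and 98 of 276 pairs of groups lay above 0.1. With a replicate block 26 members passed in long minus short day, 12 in advance minus delay, 29 in advance and 30 in delay minus short day and 6 in the short-day course (8754, 4867, 9591, 9354 and 2224 of all genes). With a replicate block within each condition the last was 8 (2838 of all genes), and no other count moved by over 1.5 times.

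Leaving out 1 array at a time gave 22 to 27 members in long minus short day (19 to 24 lower, 3 to 4 higher), with 19 lower without short-day ZT4 of replicate 1, and 8 to 13 in advance minus delay (4 to 9 lower, 4 higher). It gave 27 to 30 in advance minus short day (27 to 28 lower, 0 to 2 higher), 28 to 31 in delay minus short day, all lower, 0 to 17 in the short-day course, 0 in the other courses and their difference, 0 to 1, lower, in the late-night step and 0 in the evening step. The actin difference ran from -0.258 to -0.215 in long minus short day and from -0.177 to -0.132 in advance minus delay, and that of GAPDH from -0.163 to -0.110, with a highest exact permutation p of 0.0899 without long-day ZT4 of replicate 2, and from 0.0511 to 0.0867.

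The actin difference reversed to 0.0539 in long minus short day when read from the middle. The median of members in advance minus delay reversed to 0.0136 with actin and 0.0287 with both signals, and that in long minus short day to 0.022 at ZT12. In long minus short day Ndufs1, which did not pass, turned to -0.0302 with actin, -0.0384 with both and -0.0208 at ZT20, Ndufv1, which did not pass, to -0.0247, -0.0521 and -0.0543 at ZT0, ZT4 and ZT8, Ndufs3 to 0.0125 at ZT8 and 0.0489 at ZT12, and Ndufs4 to -0.0707 at ZT20. None of these reversed values of genes passed.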
